A study of Rattus norvegicus with 6 samples.

Results

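The immediate early genes Fos, Fosb, Jun, Junb, Egr1, Btg2, Ier2, Dusp1, Atf3 and Nr4a1 were examined in rat renal cortex. They were taken by name, with earlier results of these data known, so shares set beside those of all features below are descriptions only. A probe, one spotted DNA sequence on the array, counted for a gene when the RefSeq accession it was designed on belongs to that gene. All 10 genes had a probe, out of 15645 genes with a named probe on the array, and 14 probes measured them. Signals came from 1-colour Agilent arrays of 6 male rats of the Sprague-Dawley stock, bought at the age of 5 weeks. In 3 rats N,N'-dinitrosopentamethylenetetramine (DNPT), which belongs to the N-nitroso compounds, was given for 4 weeks, and the daily dose was 200 mg/kg. The other 3, the vehicle rats, had corn oil over the same 4 weeks. The labels give no interval between the last dose and sampling. Each array measured 1 rat, and the kidney cortex was measured as bulk tissue, so that fewer cells of a type and less RNA per cell cannot be told apart.

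Immediate early genes are transcribed within minutes of a stimulus such as a growth factor, a hormone or stress, from transcription factors already present in the cell, and their mRNAs are short-lived. Fos and Jun family proteins are bZIP factors that pair to form AP-1, while Egr1 and Nr4a1 are zinc finger factors of other families. Btg2 restrains cell division and promotes mRNA deadenylation, Dusp1 is a phosphatase that switches off MAP kinases, and Ier2 is a small nuclear protein. In kidney, Fos, Egr1 and Atf3 are well known for early induction after ischaemia and toxic injury.

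Signals are given as log2 of the processed signal relative to the 75th percentile of the same array, so a value of 0 is a signal equal to that percentile. Values of different probes are not set against each other. Of 61537 non-control probes, 42116 to 43402 cleared background per DNPT array and 44730 to 45167 per vehicle array. Precision is limited by having 6 arrays. Slide 2, scanned on day 2, held DNPT replicates 2 and 3 only, while DNPT replicate 1 shared slide 1 and its scan day with all 3 vehicle rats. For slide, the within-batch value is therefore DNPT replicate 1 minus the vehicle mean, called the slide 1 difference below. The tissue carried proximal tubule transcripts in every rat. All 6 markers of that segment (Lrp2, Cubn, Slc34a1, Slc5a2, Aqp1 and Miox) were well above background on all arrays. Of 4 adrenal markers, 3 (Cyp11b1, Cyp11b2 and Star) did not pass the filter on dim probes. The other adrenal marker, Hsd3b1, was well above background on all arrays. So were the fat markers Adipoq and Cidec and the inner medulla markers Slc14a2, Aqp3 and Akr1b1.

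Promoter sequence was available for 7 of the 10 genes (Fosb, Junb, Egr1, Btg2, Ier2, Dusp1 and Nr4a1) in RefSeq, assembly GRCr8. The 250 bases before each start site were searched on both strands, with a match read the same on both strands counted once. The cyclic AMP response element, CRE, spelled TGACGTCA, was found in Btg2, Ier2 and Dusp1, 3 of 7, and in 1.59% of 33469 rat promoters of the same length. The shorter TGACG, which every CRE also contains, was found in 6 of 7 (in all but Fosb) and in 18.2% of all promoters. The CArG box, the sequence bound by serum response factor, was found at 2 places in Egr1 and in 1.5% of all promoters. TGANTCA, the AP-1 sequence, was found in 0 of 7 and in 6.34% of all promoters. GCGNGGGCG, the Egr1 sequence, was found in Btg2 and Nr4a1 and in 4.29% of all. TATAAA was found in Junb and Fosb and in 12.9% of all, GGGCGG in Btg2, Dusp1 and Nr4a1 and in 30.5% of all, and CACGTG in Dusp1 and in 5.59% of all. In Nr4a1 the GCGNGGGCG match overlaps 1 of the GGGCGG matches. A match is a description of these letters and not a measured binding site. For 6 genes, Fosb left out, the stretches that hold the CRE, TGACG, CArG and TATAAA matches are shown 5′ to 3′. The matches are in capitals (TGACG on the opposite strand reads CGTCA). These stretches were chosen because they cover the genes with the largest differences (Nr4a1 and Btg2) and the gene that differed most in the opposite direction (Junb). They also cover genes with smaller or more variable differences that carry the same letters. Fosb, which lacks TGACG, also had all its DNPT values below all its vehicle values, by 0.0063. Whether these letters relate to the differences was not tested.
Btg2 (chr13:48087874-48087901, minus strand): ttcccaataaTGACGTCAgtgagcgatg
Ier2 (chr19:40399297-40399324, plus strand): ggcgtttcagTGACGTCActcttactct
Dusp1 (chr10:17184671-17184746, plus strand): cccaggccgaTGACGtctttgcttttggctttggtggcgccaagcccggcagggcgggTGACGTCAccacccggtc
Nr4a1 (chr7:134259888-134260099, plus strand): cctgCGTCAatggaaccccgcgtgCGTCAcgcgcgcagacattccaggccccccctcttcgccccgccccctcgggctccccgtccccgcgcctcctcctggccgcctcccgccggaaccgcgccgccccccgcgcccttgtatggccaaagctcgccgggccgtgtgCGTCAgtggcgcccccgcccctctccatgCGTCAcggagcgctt
Egr1 (chr18:26736933-26737026, plus strand): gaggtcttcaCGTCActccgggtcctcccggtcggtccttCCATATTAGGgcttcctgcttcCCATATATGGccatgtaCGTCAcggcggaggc
Junb (chr19:40080961-40081092, plus strand): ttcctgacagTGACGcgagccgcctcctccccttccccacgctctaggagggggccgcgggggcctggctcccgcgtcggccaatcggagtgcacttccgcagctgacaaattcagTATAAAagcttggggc

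The comparison of the groups addresses whether transcripts of the early response differ in renal cortex after 4 weeks of DNPT. The signals of 8 of the 10 genes were on average lower in DNPT than in vehicle rats, and those of Junb and Ier2 were higher. Nr4a1 differed most (-0.76, a DNPT to vehicle ratio of 0.589), followed by Btg2 (-0.49, a ratio of 0.71), and Junb was at 0.32 (a ratio of 1.25). None of these differences passed the test. With limma and Benjamini-Hochberg adjustment over all 34915 features, 0 of 10 genes were called at an adjusted p under 0.05, as were 0% of all features. The adjusted p-values of the 10 genes ran from 0.353 (Btg2) to 0.945 (Dusp1). Without adjustment, Btg2, Nr4a1 and Fosb on the lower side and Junb on the higher side, 4 of 10, had a p under 0.05, against 12.1% of all features (6.16% lower and 5.95% higher).

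All 10 genes were measured well above background on all 6 arrays with the probe that represents them, and no spot was saturated. The median of the 10 differences was -0.37, against 0.011 over all features, and 8 of 10 were below 0, against 48.1% of all features. All 3 DNPT values lay below all 3 vehicle values for Nr4a1, Btg2 and Fosb, 3 of 10, against 8.32% of all features. They lay above for Junb, 1 of 10, against 11.9% of all features. The groups overlapped for the other 6 genes, so that 4 of 10 stood apart in either direction, against 20.2% of all features. Each DNPT rat lay on the lower side. Its median difference from the vehicle mean over the 10 genes was -0.22 for replicates 1 and 2 and -0.55 for replicate 3. With slide as a block, which leaves the slide 1 differences alone, 8 of 10 were negative and the smallest adjusted p was 0.687 (Junb).

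**Figure D1:**
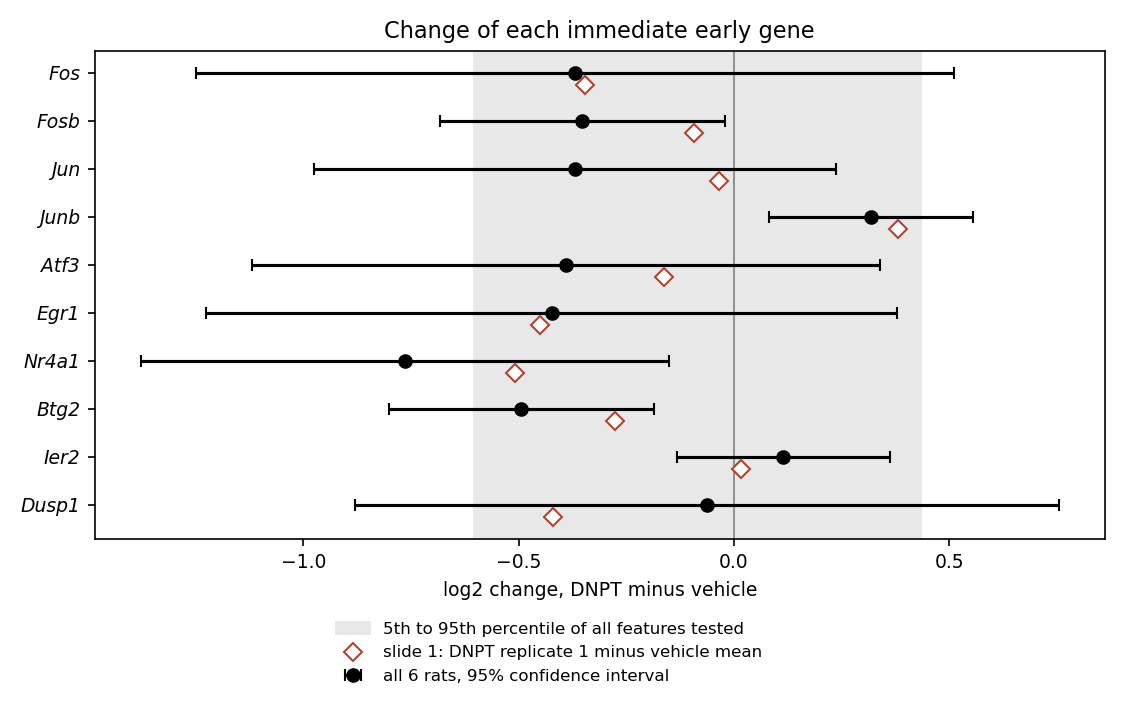
Log2 difference, DNPT minus vehicle, for each immediate early gene (filled points, bars for the 95% confidence interval from limma, 3 rats per group), beside the slide 1 difference (open diamonds, DNPT replicate 1 minus the vehicle mean). The shaded band spans -0.60 to 0.43, the 5th to 95th percentile of all features tested. Nr4a1 is the only one of the 10 points outside the band, and the Fosb and Jun diamonds lie at -0.092 and -0.035, nearer to 0 than their points.

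Among the AP-1 genes, Fos, the founding member of its family, had signals of -4.54, -4.25 and -4.89 in DNPT replicates 1 to 3, against -3.79, -4.94 and -3.84 in vehicle replicates 1 to 3. Vehicle replicate 2 had the lowest value of all 6 rats and the other 2 vehicle rats had the highest, so the groups overlapped. The difference was -0.37 (SE 0.36, 95% confidence interval -1.25 to 0.51, limma adjusted p = 0.664). With normexp background correction and quantile normalization the Fos difference was nearer to 0, at -0.17 (SE 0.13). A second Fos probe was well above background in only 1 DNPT and 1 vehicle rat and was not tested. Its mean difference had the opposite sign (0.26, SE 0.28). Fosb, the paralogue of Fos, had signals of -0.30, -0.68 and -0.70 in DNPT rats, against -0.29, -0.14 and -0.18 in vehicle rats. The groups were separated by only 0.0063, between DNPT replicate 1 and vehicle replicate 1, and they overlapped under quantile normalization, median scaling and normexp with quantile normalization. The Fosb difference was -0.35 (SE 0.13, limma adjusted p = 0.405), with a slide 1 difference of -0.092.

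Jun, the usual partner of Fos in AP-1, had signals of 3.18, 3.04 and 2.32 in DNPT rats, against 3.12, 3.41 and 3.11 in vehicle rats. DNPT replicate 3 was the lowest and the other 2 DNPT rats lay close to vehicle rats. The difference was -0.37 (SE 0.25, limma adjusted p = 0.536), with a slide 1 difference of -0.035, and it ran from -0.54 without DNPT replicate 1 to -0.11 without DNPT replicate 3. The second Jun probe averaged 1.06 ± 0.30 in the DNPT group, against 1.25 ± 0.52 in the vehicle group (SD, n = 3 each).

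Junb, a Jun family member that can counter the growth-promoting activity of Jun, lay on the other side. Its signals were 2.95, 2.83 and 2.88 in DNPT rats, against 2.45, 2.56 and 2.70 in vehicle rats. The 3 DNPT values lay within 0.12 of each other, and the lowest was 0.13 above the highest vehicle value. The difference was 0.32 (SE 0.096, 95% confidence interval 0.081 to 0.56, limma adjusted p = 0.382), and the slide 1 difference was 0.38. The second Junb probe had signals of -2.38, -2.61 and -2.30 in DNPT rats, against -3.38, -2.81 and -2.43 in vehicle rats. Its mean difference had the same sign (0.44, SE 0.26), but DNPT replicate 2 lay below vehicle replicate 3, so the groups overlapped on that probe, and also on the mean of both probes.

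Atf3, a stress-induced bZIP factor that mostly represses transcription, had signals of -1.05, -1.15 and -1.63 in DNPT rats, against -1.33, -0.99 and -0.33 in vehicle rats. Vehicle replicate 3 stood above the other 5 rats, which overlapped. The difference was -0.39 (SE 0.30, limma adjusted p = 0.581), with a slide 1 difference of -0.16, and it ran from -0.62 without vehicle replicate 1 to -0.11 without vehicle replicate 3.

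**Figure D2:**
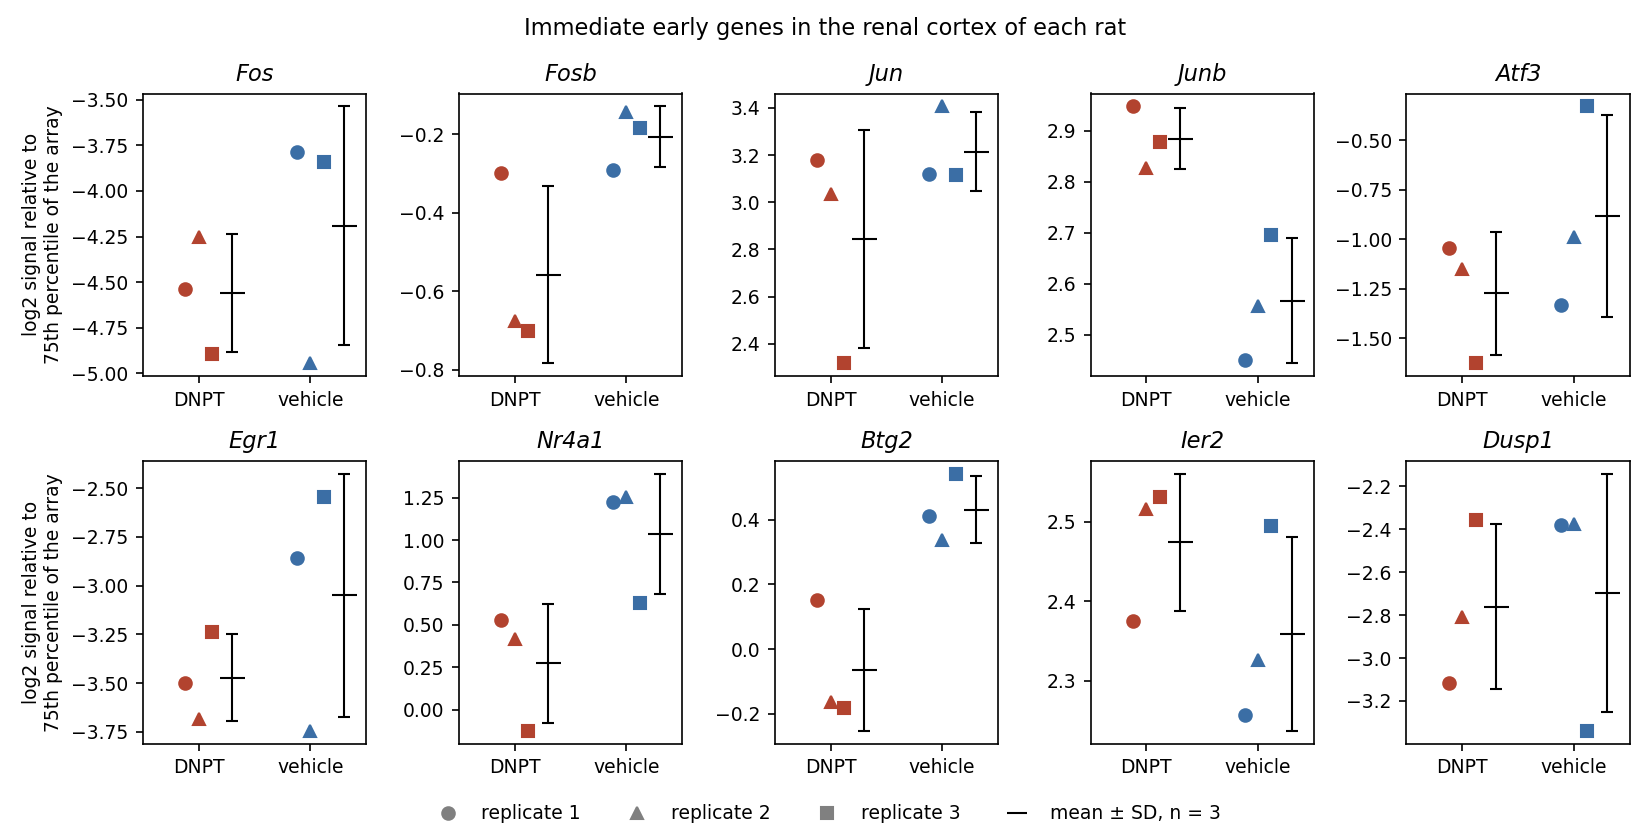
Log2 signal relative to the 75th percentile of the array for each of the 10 genes in each rat, DNPT left of vehicle, with a marker shape per replicate and the mean ± SD of 3 rats in black. Each panel has its own axis. The groups are apart for Fosb (by 0.0063), Junb, Nr4a1 and Btg2 and overlap in the other 6 panels.

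Of the other transcription factors, Egr1 is a zinc finger activator that many stimuli induce through serum response factor, and the stretch shown above holds its 2 CArG matches. Its signals were -3.50, -3.68 and -3.24 in DNPT rats, against -2.86, -3.74 and -2.54 in vehicle rats. As for Fos, vehicle replicate 2 was the lowest of all 6 rats and vehicle replicates 1 and 3 were the highest. The difference was -0.42 (SE 0.33, 95% confidence interval -1.23 to 0.38, limma adjusted p = 0.586). With single rats left out, the Egr1 difference ran from -0.77 (without vehicle replicate 2) to -0.17 (without vehicle replicate 3). The Fos difference ran from -0.75 (without vehicle replicate 2) to -0.17 (without vehicle replicate 1) and was -0.19 without vehicle replicate 3. The groups of both genes stood apart without vehicle replicate 2, which the order of the rats given above fixes in advance. Neither gene was called in any of these fits.

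Nr4a1, an orphan nuclear receptor also called Nur77, had the largest difference of the 10 genes. Its signals were 0.53, 0.41 and -0.13 in DNPT rats, against 1.23, 1.26 and 0.63 in vehicle rats. Every DNPT rat lay below every vehicle rat, with a gap of 0.10 between DNPT replicate 1 and vehicle replicate 3. The means were 0.27 ± 0.35 in DNPT and 1.04 ± 0.35 in vehicle rats (SD, n = 3 each), and the difference was -0.76 (SE 0.25, 95% confidence interval -1.38 to -0.15, limma adjusted p = 0.393). The slide 1 difference was -0.51. Its promoter stretch holds TGACG at 4 places.

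Btg2, an antiproliferative gene that p53 and growth factors both induce, had the smallest p of the 10. Its signals were 0.15, -0.16 and -0.18 in DNPT rats, against 0.41, 0.34 and 0.54 in vehicle rats. The groups were 0.18 apart, and the means were -0.064 ± 0.19 in DNPT and 0.43 ± 0.10 in vehicle rats (SD, n = 3 each). The difference was -0.49 (SE 0.12, 95% confidence interval -0.80 to -0.19, limma adjusted p = 0.353), with a slide 1 difference of -0.28. The second Btg2 probe had signals of -0.14, -0.21 and -0.29 in DNPT rats, against 0.21, 0.19 and 0.34 in vehicle rats. Both probes of Btg2 thus separated the groups and gave close differences (-0.49 and -0.46).

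Ier2 and Dusp1 share the full CRE with Btg2. Ier2 had signals of 2.38, 2.52 and 2.53 in DNPT rats, against 2.26, 2.33 and 2.49 in vehicle rats. It varied least between rats beside Junb, and the groups overlapped. The difference was 0.11 (SE 0.10, 95% confidence interval -0.13 to 0.36, limma adjusted p = 0.63), with a slide 1 difference of 0.016. Dusp1, which is also induced by glucocorticoids, had signals of -3.12, -2.81 and -2.36 in DNPT rats, against -2.38, -2.37 and -3.34 in vehicle rats. The lowest value was in vehicle replicate 3 and both groups covered most of the same range. The Dusp1 difference was -0.063 (SE 0.33, 95% confidence interval -0.88 to 0.75, limma adjusted p = 0.945), and it had no settled sign, running from -0.38 to 0.12 with single rats left out. Its slide 1 difference was -0.42.

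The genes did not share 1 pattern across rats. DNPT replicate 3 had the lowest value of all 6 rats in 5 genes (Fosb, Jun, Atf3, Nr4a1 and Btg2) but the highest in Ier2 and Dusp1. Vehicle replicate 2 had the lowest value of Fos and Egr1 and the highest of Fosb, Jun and Nr4a1. The SD within groups was larger for Fos (0.52), Dusp1 (0.48), Egr1 (0.47) and Atf3 (0.42) than for Ier2 (0.11) and Junb (0.097), where the median over all features was 0.18. Among pairs of these genes, Fosb and Btg2 had the closest profiles, with a root mean square difference of 0.11 over 6 rats after centring. Junb and Ier2 followed (0.13), and the profiles of Dusp1 and Atf3 were the least alike (0.74). The measure is not scaled to a gene's spread, so genes that varied little, such as Junb and Ier2, lie close by it.

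**Figure D3:**
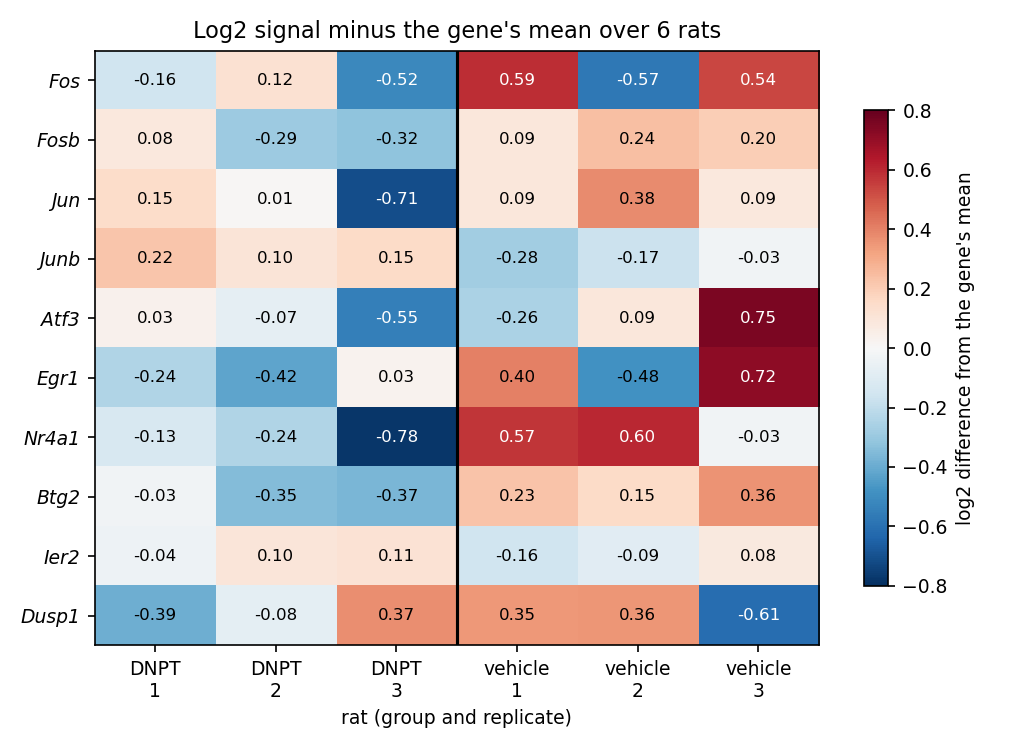
Log2 signal of each gene minus its mean over the 6 rats, DNPT rats left of the black line and vehicle rats right of it, red for higher and blue for lower. Fos and Egr1 are low in vehicle replicate 2 (-0.57 and -0.48), Jun and Nr4a1 are low in DNPT replicate 3 (-0.71 and -0.78), and Dusp1 is low in vehicle replicate 3 (-0.61).

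The genes with the most similar profile were sought among 12666 other named genes by the root mean square difference of centred log2 signals over the 6 rats. Closest to Fos were Camk4 (0.13), Rsph1 (0.14), Nkd2 (0.17) and Sema6d (0.18). Closest to the mean profile of the 10 genes was Ier5, itself an immediate early gene, at 0.017, followed by Tmtc4, Lsm11 and Fcgbpl1, each at 0.042. Ier5 signals were 1.71, 1.66 and 1.46 in DNPT rats, against 1.91, 1.81 and 1.96 in vehicle rats (difference -0.28, SE 0.10, limma adjusted p = 0.399).

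Other genes of the early response were taken from 3 lists, also chosen with earlier results of these data known. Of 25 other early response transcription factors, 21 were tested and 0 were called, and Fosl1, Egr2, Egr4 and Nr4a3 did not pass the filter on dim probes. Their median difference was -0.025, with 12 below 0 and 9 above. The groups stood apart with DNPT lower in 4 of 21, or 19.0%, against 8.32% of all features, and with DNPT higher in 2 of 21, or 9.52%, against 11.9% of all features. The 3 largest on the lower side were Klf2, a factor of endothelium and lymphocytes (-0.55, SE 0.14, slide 1 difference -0.35), Batf, an AP-1 factor of lymphocytes (-0.49, SE 0.11), and Myc, a growth regulator (-0.37, SE 0.12), and those on the higher side were Id3, an inhibitor of bHLH factors (0.39, SE 0.14), and Srf, which binds CArG boxes (0.064, SE 0.072).

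Early response genes for signalling and mRNA decay had 21 differences below 0 and 11 above. Of 33 genes, 32 were tested and 0 were called, with a smallest limma adjusted p of 0.294 (Trib1) and a median difference of -0.16. The groups stood apart with DNPT lower in 9 of 32, or 28.1%, where 8.32% of all features did so, and higher in 2 of 32, or 6.25%, against 11.9% of all features. Trib1, a pseudokinase that directs protein degradation, had signals of -0.54, -0.74 and -0.55 in DNPT rats, against -0.12, 0.38 and 0.43 in vehicle rats (difference -0.84, SE 0.17). Sgk1, a kinase induced by aldosterone and glucocorticoids, had signals of 1.42, 2.61 and 2.64 in DNPT rats, against 3.38, 3.31 and 3.59 in vehicle rats (difference -1.20, SE 0.35). Both genes were lower in every DNPT rat than in any vehicle rat, and the lowest Sgk1 signal was in DNPT replicate 1, the DNPT rat on slide 1. Arc, an early gene best known from neurons, was at -1.09 (SE 0.34), while Ier5l, a relative of Ier5, was at 0.56 (SE 0.18, slide 1 difference 0.26) and Gadd45b, a stress sensor, at 0.23 (SE 0.098, slide 1 difference 0.12). Zfp36, whose protein speeds the decay of mRNAs with AU-rich elements, was picked after its values were seen because its difference of -1.51 (SE 0.53, slide 1 difference -0.80) was the largest of the list. Its signals were -2.31, -2.97 and -3.77 in DNPT rats, against -1.09, -0.99 and -2.46 in vehicle rats, so the groups overlapped.

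Kinases and transcription factors upstream of the immediate early genes had smaller differences. Of 31 genes, 26 had a named probe, all 26 were tested, 0 were called and 0 had an unadjusted p under 0.05 in limma. Their differences ran from -0.21 to 0.42 around a median of 0.051. The groups stood apart with DNPT higher in 3 of 26, or 11.5%, and lower in 2 of 26, or 7.69%, against 11.9% and 8.32% of all features. DNPT was higher without overlap in Map2k3 (0.21, SE 0.095), the catalytic subunit gene of protein kinase A Prkaca (0.14, SE 0.073) and Map2k2 (0.096, SE 0.078, slide 1 difference 0.023), and lower without overlap in the CREB coactivator gene Crtc1 (-0.11, SE 0.072).

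**Figure D4:**
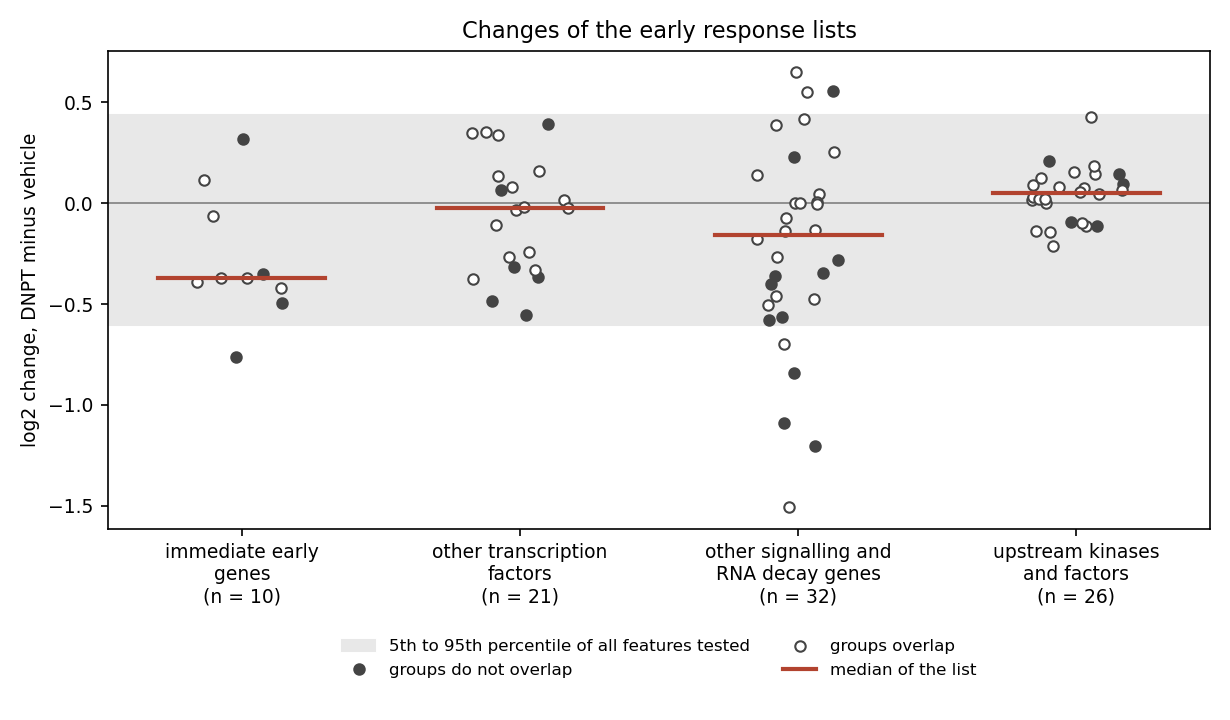
Log2 difference, DNPT minus vehicle, for the 10 immediate early genes and the tested genes of 3 further lists, 1 point per gene, filled where the groups do not overlap. Red lines mark list medians (-0.37, -0.025, -0.16 and 0.051 from left to right) and the band the 5th to 95th percentile of all features. The points of the upstream list all lie within the band.

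Mean signals of some cell type markers also stood apart between the groups, although 0 of the markers were called, and their part in the results above was not tested. The mean log2 signal of 4 red cell markers was 0.97 to 1.23 in DNPT rats, against 0.10 to 0.69 in vehicle rats, and that of 6 proximal tubule markers was 7.36 to 7.41 in DNPT rats, against 7.24 to 7.27 in vehicle rats. For 6 tested lymphocyte markers of 8 it was -3.63 to -3.12 in DNPT rats, against -3.32 to -3.18 in vehicle rats. Cd79a and Ms4a1 were not tested, and the mean of DNPT replicate 2 lacks Cd79b, which had no value there. For 6 macrophage markers it was 0.83 to 1.18 in DNPT rats, against 1.02 to 1.24 in vehicle rats, and for 6 endothelial markers 1.60 to 1.75 in DNPT rats, against 1.54 to 1.68 in vehicle rats. For the liver transcripts Alb, Apoa1 and Fgb it was -3.44 to 1.30 in DNPT rats, against -3.41 to -1.20 in vehicle rats. The highest of these liver means was in DNPT replicate 3. That rat had the lowest value in 5 of the 10 immediate early genes and the highest in 2 (Ier2 and Dusp1).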

How the data were processed

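Renal cortex mRNA of 6 rats was measured on 1-colour Agilent arrays. Scans were read with Agilent Feature Extraction 10.7, as named in the submitters' processing notes. Per the file headers, the deposited processed signal is a background-corrected intensity on a linear scale. A deposited table gives, as a linear ratio, a value that equalled each processed signal over a constant near the array's 75th percentile (100% of probes with a table value above 0.1 lay within 0.5% of it), not centred, with column medians of 0.112 to 0.116.

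Control spots and 113 outlier values were left out. Log2 processed signal minus the array's 75th percentile gave the values. Tests covered probes well above background on at least 3 arrays with at least 2 values per group. Of 61537 probes, 28206 matched 1 gene through unversioned accessions in a RefSeq table (GRCr8, while the array design names an older build). Each gene took the brightest of its tested probes (by mean signal) and unnamed probes stood alone, which gave 34915 features. The test was two-sided limma (version 3.58.1, lmFit and eBayes, R 4.3.3) with no covariate, and p-values were adjusted by Benjamini-Hochberg with a threshold of 0.05. The fit was tested on simulated data. All 10 members were named. From each list, members that passed were to be named, or else up to 3 per direction without overlap. An item that falls under this rule is not reported here. The 4 genes nearest to Fos and to the members' mean were named too. Members and lists were chosen with earlier results of these data known. Alternatives covered normalization, background correction, the value table, filters, probe choice, slide, replicate number, trend, array weights and each rat left out. The files hold no mean signal, so normexp (offset 50) used the median signal. Python 3.11.15, pandas 2.3.3 and matplotlib 3.10.9 made tables and plots.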

Additional observations from a re-analysis of the deposited data

How the results depend on the processing

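Across 18 alternatives, 0 of 180 member values reached an adjusted p under 0.05, with the smallest at 0.0673 (Btg2, without DNPT replicate 1), and 177 of 180 kept the direction of their difference. The 3 exceptions were all Dusp1 with a rat left out (-0.38 to 0.12 over the 6 such fits). The 177 were not separate checks. The intensity trend, the replicate block and the changed filters gave the same member differences as the main fit. Slide 1 alone repeated the differences of slide as a block. The median member difference ran from -0.45 to -0.24 with a rat left out and was -0.22 with slide as a block or on slide 1 alone, fits that rest on DNPT replicate 1. Over all features, limma called 0 higher and 0 lower. It called 2 higher with normexp and quantile normalization and 1 higher with slide as a block, and 0 to 40 higher and 0 to 583 lower with a rat left out, the highest counts without DNPT replicate 1. Without DNPT replicate 1, the DNPT arrays all lay on slide 2 and the vehicle arrays all on slide 1. Treatment and slide cannot be told apart in that fit, which also gave the smallest Btg2 value above. The members whose groups stood apart with DNPT higher numbered 0 with the mean of a gene's probes, since Junb then overlapped, and 1 to 2 with a rat left out. Those with DNPT lower numbered 3 to 5 with a rat left out, where fewer values make overlap less likely. The 5 were reached without vehicle replicate 2. Deviations from the group mean did not rise together in rats with the same replicate number (correlations over features -0.177, -0.0593 and -0.179). Whether the numbers mark pairs cannot be settled from this, since slide also splits the DNPT rats. The replicate block called 0 members, with limma adjusted p-values of 0.551 to 0.958. Signal over background limited the second Fos probe, well above background on 2 of 6 arrays.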
